A study of Mus musculus with 8 samples.

Results

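The cardiac myosin genes studied here are 8 genes of the thick filament: the heavy chain genes Myh6 and Myh7, the light chain genes Myl2, Myl3, Myl4 and Myl7, and the myosin binding protein genes Mybpc3 and Mybphl. They were taken by symbol from a table of 13869 genes, and all 8 were present. The libraries were made from polyadenylated RNA of mouse heart ventricles at E14.5 (embryonic day). The mutant group held 4 libraries of genotype Mib1flox; TnT-Cre, in which a floxed Mib1 allele is targeted by Cre under the cardiac troponin T promoter, which is active in cardiomyocytes; Mib1 encodes a ubiquitin ligase that makes Notch ligands signal. The other 4 libraries came from hearts labelled WT. The sources used here do not say whether these carried Cre or a floxed allele. Each library is a pool, since 16 hearts of each genotype gave 4 replicates. The labels do not tie the pools to litters, so p-values measure only the spread between pools, which may be technical.

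Each cardiac myosin consists of a pair of heavy chains, which carry the motor, and a regulatory and an essential light chain on each heavy chain. The chains are exchanged between chambers and stages: in the mouse, Myh7 (beta heavy chain) is the fetal and Myh6 (alpha heavy chain) the adult ventricular form, Myl7 is the atrial and Myl2 the ventricular regulatory light chain, and Myl4 is the atrial and early ventricular essential light chain that Myl3 replaces in the adult ventricle. Mybpc3 encodes cardiac myosin binding protein C, which tunes the cross-bridge cycle, and Mybphl encodes a related protein enriched in the atria and the conduction system.

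The 250 bases before the start of Myl7, the only member that passed the test between genotypes, and of Myh7 and Myh6, the neighbouring heavy chain genes whose ratio was tested, are shown as examples of the regulatory sequence of these genes. They are from RefSeq on GRCm38.p6, which is not the mm9 build named for the counts, and run 5′ to 3′ on the strand of the gene. Myl7 is chr11:5898783-5899032, Myh7 is chr14:54994627-54994876 and Myh6 is chr14:54966608-54966857, all on the minus strand, and capitals mark motif matches.
Myl7: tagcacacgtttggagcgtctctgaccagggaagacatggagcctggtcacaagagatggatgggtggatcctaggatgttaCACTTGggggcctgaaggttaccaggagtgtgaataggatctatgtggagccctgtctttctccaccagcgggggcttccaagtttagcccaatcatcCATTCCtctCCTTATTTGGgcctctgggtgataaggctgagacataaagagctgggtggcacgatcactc
Myh7: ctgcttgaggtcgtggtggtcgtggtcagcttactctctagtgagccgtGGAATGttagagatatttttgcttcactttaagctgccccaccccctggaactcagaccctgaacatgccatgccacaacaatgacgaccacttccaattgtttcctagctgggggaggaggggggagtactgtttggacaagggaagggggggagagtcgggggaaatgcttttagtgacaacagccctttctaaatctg
Myh6: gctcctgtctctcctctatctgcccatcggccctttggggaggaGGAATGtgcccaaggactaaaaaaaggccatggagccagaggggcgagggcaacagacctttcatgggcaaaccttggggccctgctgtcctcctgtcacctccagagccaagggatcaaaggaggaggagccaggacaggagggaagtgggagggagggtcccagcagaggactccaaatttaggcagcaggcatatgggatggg

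The capitals in Myl7 are a CArG box, the site of serum response factor, which begins 61 bases before the start, a TEAD motif at 70 bases and an NKX2 motif at 168 bases. In Myh7 and Myh6 they are a TEAD motif at 201 and at 206 bases before the start. Both strands were searched for 9 motifs in 7 members (not Myl2), and no matches overlapped in the windows shown. The TEAD motif (CATTCC) was present in 4 of the 7 windows and in 12.6% of all 32841 promoter windows of that length. The CArG box was present in 2 of 7, Myl7 and Myl3, and in 1.47% of all. The MEF2 box was found before Mybpc3 and in 3.20% of all windows. The NKX2 motif (CACTTG) was found before Myl7 and Mybpc3 and in 11.6% of all windows. The motif of GATA factors (AGATAA) was found before Mybphl and in 9.99% of all windows. The other 4 motifs were in none of the 7. Of all windows, 11.8% held the T-box motif, spelled AGGTGT. The RBPJ motif, spelled TGGGAA, was in 21.6%. The E-box, spelled CACGTG, was in 6.02%. The nuclear receptor half-site, spelled AGGTCA, was in 14.0%. A match is a stretch of letters and not a measured site.

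The libraries held 6597943 to 11506082 counts in the mutants and 6307634 to 8964058 in wild type. CPM stands for counts per 1000000 of a library size that was recovered from the deposited values. These sizes were 0.9857 to 1.0129 times the total counts. A count of 3 was worth 0.265 to 0.472 CPM. Mib1 stood at 106, 103, 95.3 and 96.3 CPM in the mutant libraries and at 150, 166, 160.5 and 167 CPM in the wild-type libraries, a log2 difference of −0.68 ± 0.06 (SE; limma adjusted p = 8.62e-06). Its counts cover the whole transcript and all cell types, not the floxed part alone. Across all genes tested by limma, 308 of 13740 were called at an adjusted p under 0.05, which is 2.24%, with 136 higher (0.99%) and 172 lower (1.25%) in the mutants. The count was 477 without mutant replicate 3, 183 without mutant replicate 2, and 146, 147 and 161 without wild-type replicate 1, 2 or 3. The 4 libraries of a group correlated with each other at 0.981 to 0.987 over the tested genes, and libraries of different groups at 0.977 to 0.985.

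One myosin gene rose in the Mib1 mutant ventricles and none fell by this test. Myl7, the atrial regulatory light chain, was 29.6% higher, with a call close to the threshold. Its ventricular counterpart Myl2 had a mean 1.12-fold lower in the mutants and did not pass (adjusted p = 0.135 by limma). The heavy chains, the essential light chains and Mybpc3 had log2 differences from −0.15 to −0.03, and none of these passed. Mybphl, of which each library held 10 to 29 counts, had a mean 1.91-fold lower and did not pass either. All 8 members were tested, of which 1 was called higher and 0 lower, against 0.99% and 1.25% of all genes tested. Before adjustment, 5 of the 8 had p under 0.05, 4 of them lower, where 14.8% of all tested genes had such a p and 7.85% had it with lower values. The groups did not overlap for 3 members, Myl7, Myl2 and Mybphl, where they did not overlap for 8.92% of all tested genes. Of these 3, 1 was higher and 2 were lower, against 4.27% and 4.65% of all tested genes. The median log2 difference of the members was −0.13, with 7 of 8 below 0, against a median of 0.00092 and 49.7% of genes below 0 over all genes tested.

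**Figure D1:**
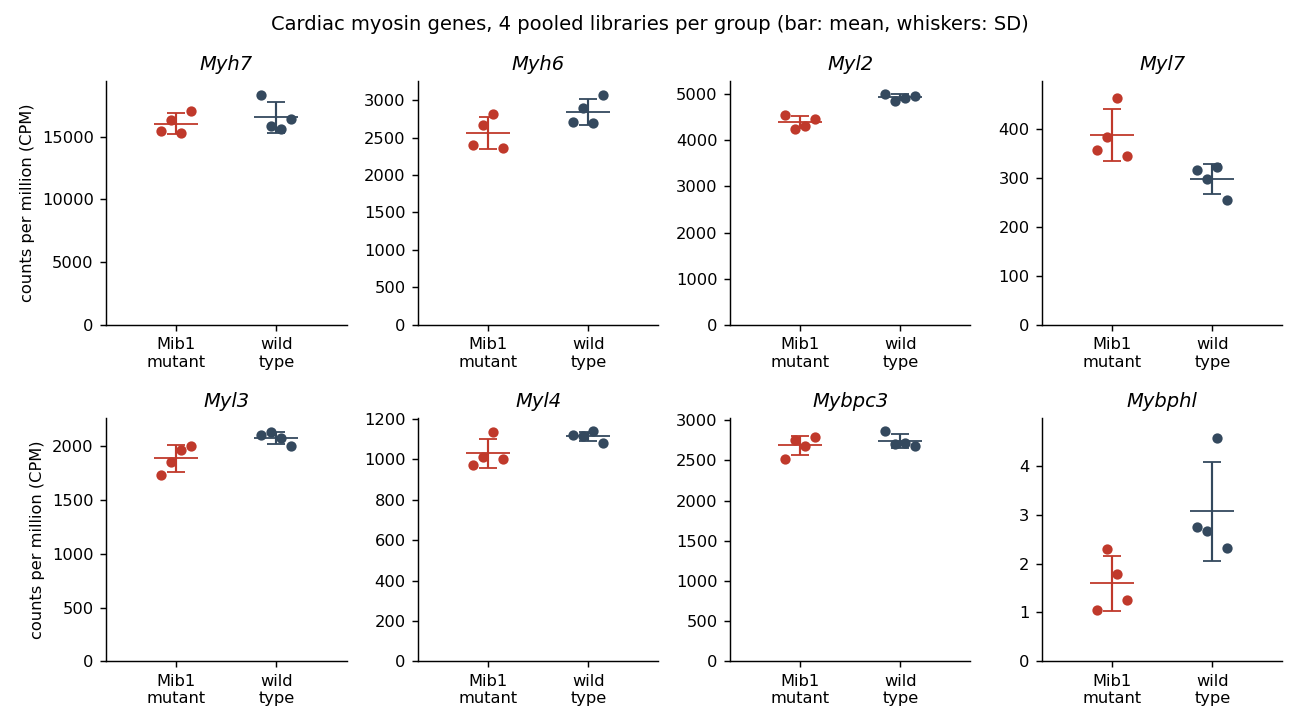
CPM of each myosin gene in the 4 Mib1 mutant libraries (left, red) and the 4 wild-type libraries (right, dark blue), with the mean (bar) and SD (whiskers), each axis starting at 0. Myl7 lies above and Myl2 and Mybphl lie below wild type in every mutant library, and the other 5 genes overlap.

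Myl7 (ENSMUSG00000020469) had 356, 382, 463 and 345 CPM in the mutant libraries, against 315, 298, 322 and 255 CPM in the wild-type libraries. Every mutant library lay above every wild-type library, mutant replicate 3 was the highest of all 8 and wild-type replicate 4 the lowest. The means were 387 ± 53.2 CPM in mutants and 297 ± 30.0 CPM in wild type (SD, n = 4 each), a log2 difference of 0.37 ± 0.09 (SE; limma adjusted p = 0.0471). When each library was dropped in turn, the call was lost in 6 of 8 fits (all but those without mutant replicate 1 or 4) and in 5 of 14 other settings, with differences from 0.28 (without mutant replicate 3) to 0.43 and adjusted p from 0.00994 to 0.211.

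Myl2 (ENSMUSG00000013936), which makes up the ventricular regulatory light chain, had 4547, 4254, 4309.9 and 4463 CPM in the mutants and 4998, 4859, 4916 and 4966 CPM in wild type. All 4 mutant values were below all 4 wild-type values, and the wild-type values lay within a narrow band. The means were 4394 ± 135 CPM in mutants and 4935 ± 60.5 CPM in wild type (SD, n = 4 each), with a log2 difference of −0.17 ± 0.05 (SE; 95% interval −0.28 to −0.05). This missed the threshold by limma with a trend (adjusted p = 0.135), and passed with robust variance estimates (adjusted p = 0.0371) and with voom weights (adjusted p = 0.0307), over a range of 0.0307 to 0.639 in all settings. Quantile scaling moved the difference to −0.07. Exons of Ccdc63 overlap Myl2 on the other strand, and Ccdc63 stood at 1.3 CPM in mutants and 1.5 CPM in wild type.

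Per kb of transcript, Myl7 amounted to 11.8%, 13.5%, 16.2% and 11.6% of Myl2 in the mutant libraries, against 9.49%, 9.23%, 9.88% and 7.74% in the wild-type libraries. The groups did not overlap. The ratio averaged 13.3% ± 2.11 in mutants and 9.09% ± 0.934 in wild type (SD, n = 4 each), so the atrial-to-ventricular regulatory light chain ratio was 1.46-fold higher in the mutants (log2 difference 0.54 ± 0.13, SE). An exact two-sided permutation test gave p = 0.0286, the smallest that 4 against 4 libraries allow, and 0.0571 after Benjamini-Hochberg adjustment over the 4 ratios tested. Shifts of 0.24 to 1.06 on the log2 scale were not rejected by the exact test at 0.05. Fewer cells of a type and less RNA per cell cannot be told apart in these bulk libraries.

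**Figure D2:**
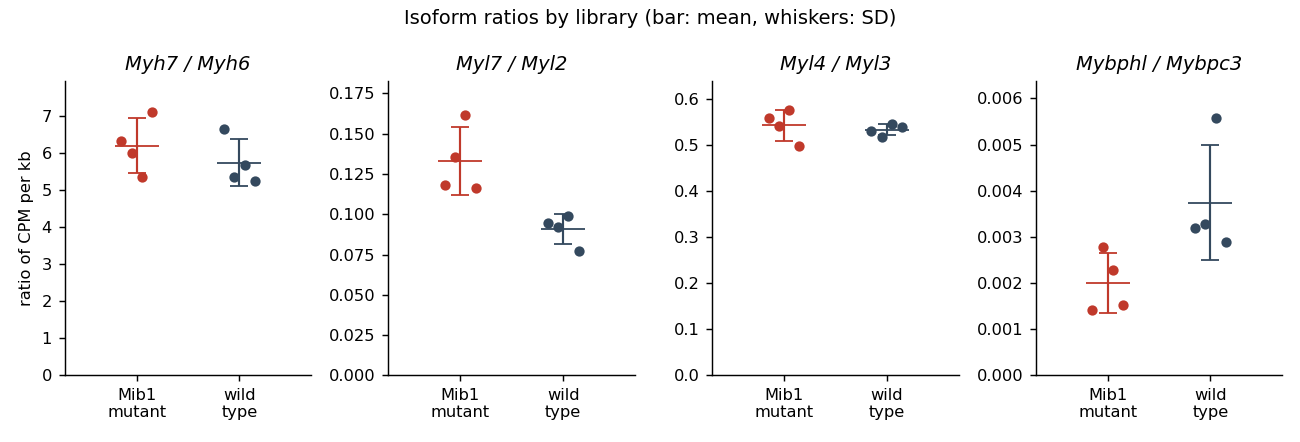
Ratio of CPM per kb of transcript for the 4 isoform pairs in each Mib1 mutant (left, red) and wild-type (right, dark blue) library, with the mean (bar) and SD (whiskers), axes from 0. Myl7 over Myl2 is higher in every mutant library (0.116 to 0.162) than in wild type (0.0774 to 0.0988), Mybphl over Mybpc3 is lower, and the groups overlap for Myh7 over Myh6 and Myl4 over Myl3.

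The essential light chain genes were not called. Myl3 (ENSMUSG00000059741), the ventricular form, had 1731, 1855, 1962 and 2004 CPM in the mutants and 2101, 2137, 2077 and 2000.2 CPM in wild type. Mutant replicate 4 was above wild-type replicate 4, and the other 3 mutant libraries were below all wild-type libraries. Its log2 difference was −0.14 ± 0.06 (SE; limma adjusted p = 0.255). Exons of Pth1r overlap Myl3 on the other strand, at 25.8 to 33.9 CPM in mutants and 28.5 to 32.1 CPM in wild type. Myl4 (ENSMUSG00000061086), the atrial and fetal form, had 972, 1012, 1135 and 1002 CPM in the mutants and 1118.5, 1114, 1139.9 and 1083 CPM in wild type. Mutant replicate 3 fell within the wild-type values and the other 3 mutant libraries below them, and its difference on the log2 scale was −0.11 ± 0.05 (SE; adjusted p = 0.34 by limma).

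The Myl4 over Myl3 ratio per kb was 0.558, 0.542, 0.575 and 0.497 in the mutants and 0.529, 0.518, 0.545 and 0.538 in wild type. It averaged 0.543 ± 0.0336 in mutants and 0.532 ± 0.0118 in wild type (SD, n = 4 each). The log2 difference was 0.03 ± 0.05 (SE; exact permutation p = 0.629, adjusted over the 4 ratios 0.629), with shifts of −0.13 to 0.15 not rejected at 0.05. In these ventricles the fetal form was 35.2% ± 1.43 of Myl4 plus Myl3 in mutants and 34.7% ± 0.505 in wild type, per kb. Quantile scaling turned the sign of this ratio's difference, to −0.17, and it was −0.0021 without mutant replicate 3. Of the atrial light chain genes, Myl7 was called higher, and Myl4 had a difference below 0 that did not pass.

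The heavy chain genes carried most of the myosin counts. Myh7 (ENSMUSG00000053093) ranked second of all 13869 genes in mean CPM, after the mitochondrial gene mt-Co1, and took 1.53% to 1.72% of all counts in the mutants and 1.57% to 1.83% in wild type. It had 15485, 16334, 15312 and 17097 CPM in mutant libraries and 18373, 15846, 15599 and 16421 CPM in wild-type libraries. The groups overlapped, and wild-type replicate 1 was the highest library. Myh7 differed by −0.04 ± 0.08 on the log2 scale (SE; 95% interval −0.21 to 0.12; limma adjusted p = 0.851), and it was 0.01 without wild-type replicate 1. Myh6 (ENSMUSG00000040752) had 2403, 2671, 2808 and 2355 CPM in mutants and 2707, 2896, 2693 and 3064 CPM in wild type. Mutant replicate 3 lay within the wild-type values and the others below them. Its log2 difference was −0.15 ± 0.07 (SE; limma adjusted p = 0.315).

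The fetal-to-adult heavy chain ratio, Myh7 over Myh6 per kb, was 6.32, 6.0, 5.35 and 7.12 in the mutants and 6.66, 5.37, 5.68 and 5.26 in wild type. The means were 6.20 ± 0.737 in mutants and 5.74 ± 0.637 in wild type (SD, n = 4 each), and the groups overlapped. The log2 difference was 0.11 ± 0.12 (SE; exact permutation p = 0.371, adjusted over the 4 ratios 0.495), with shifts of −0.31 to 0.43 not rejected. The beta chain gene accounted for 86.0% ± 1.43 of Myh7 plus Myh6 in mutants and 85.1% ± 1.32 in wild type, per kb. The pair shares sequence: 1373 of the 6064 windows of 50 bases in the Myh6 transcript (22.6%) occur letter for letter in Myh7, and such reads are divided between the genes by estimation. None of the 50-base windows of the other 6 members occurred in another gene. On the other strand, exons of Mhrt, Gm29015 and Gm31251 overlap Myh7, and the sources used here do not say whether counting used strand. The noncoding RNAs of this locus (Mhrt, Mir208a and Mir208b) were not found by symbol among the 13869 genes, so they could not be analysed.

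**Figure D3:**
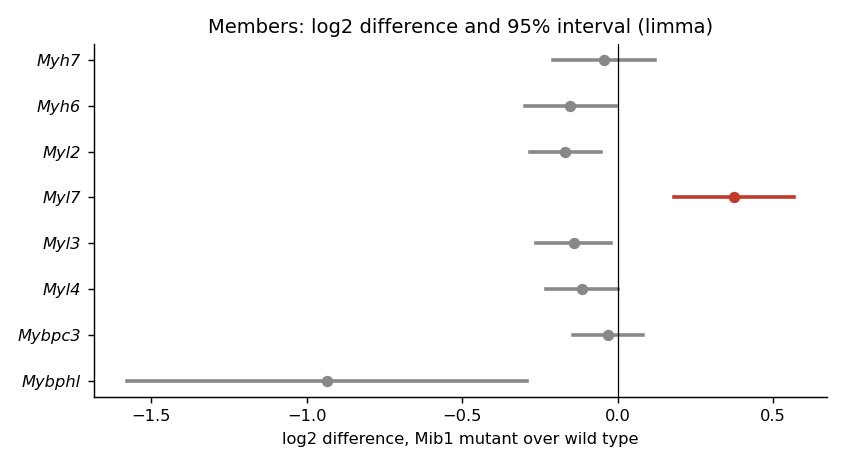
Log2 difference of each myosin gene, Mib1 mutant over wild type, with its 95% interval from limma; red marks the gene called higher at an adjusted p under 0.05 and grey the genes not called. Myl7 lies at 0.37, Mybphl at −0.93 with a wide interval (−1.58 to −0.29), and the other 6 genes between −0.17 and −0.03.

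The binding protein genes stood at very different levels. Mybpc3 (ENSMUSG00000002100) had 2521, 2752, 2682 and 2789 CPM in the mutants and 2869, 2709, 2713 and 2685 CPM in wild type. The groups overlapped, and its difference on the log2 scale was −0.03 ± 0.05 (SE; 95% interval −0.15 to 0.08; limma adjusted p = 0.841). Mybphl (ENSMUSG00000068745) had 1.06, 2.29, 1.80 and 1.25 CPM in mutants, from 12, 18, 12 and 10 counts. In wild type it had 2.74, 2.66, 4.57 and 2.32 CPM, from 19, 24, 29 and 19 counts. All mutant libraries were lower than all wild-type libraries, with mutant replicate 2 and wild-type replicate 4 nearest to each other. On the log2 scale this was −0.93 ± 0.30 (SE; adjusted p = 0.145 by limma). With 1 or 5 CPM added before the logarithm, which shrinks differences of low genes, it was −0.64 and −0.29. Counting error alone was near 27.7% of the value in a mutant library and 21.0% in a wild-type library. The Mybphl over Mybpc3 ratio per kb was 0.00201 ± 0.000646 in mutants and 0.00374 ± 0.00124 in wild type (SD, n = 4 each), with no overlap (exact permutation p = 0.0286, adjusted over the 4 ratios 0.0571). Its log2 difference was −0.90 ± 0.31 (SE), and −0.26 with 5 CPM added to both genes.

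Between the members, the order of levels per kb of transcript was the same at the top in both groups. Myl2 stood first, at 4942 ± 152 CPM per kb in mutants and 5551 ± 68.1 in wild type, before Myh7 (2577 ± 132 in mutants and 2658 ± 202 in wild type), Myl3 (2015 ± 131 in mutants and 2219 ± 62.0 in wild type) and Myl4 (1092 ± 76.3 in mutants and 1181 ± 25.1 in wild type). None of these 4 genes overlapped its neighbour within a group. Below them the order depended on the group. In the mutants Myl7 (584 to 784 CPM per kb) overlapped Mybpc3 (606 to 670.0) and both lay above Myh6 (385 to 459). In wild type Myl7 (432 to 546) lay below Mybpc3 (645 to 689) and overlapped Myh6 (440.5 to 501). Mybphl was last, at 1.25 ± 0.437 CPM per kb in mutants and 2.41 ± 0.793 in wild type. Together the 8 genes took 2.76% to 3.02% of the counts in mutant libraries and 2.97% to 3.23% in wild-type libraries.

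The coefficient of variation between libraries was higher in the mutants for 7 of the 8 members, and for 63.6% of all tested genes. Over all genes, chi-square per degree of freedom was 3.22 to 9.43 for pairs of mutant libraries and 1.96 to 4.16 for wild-type pairs, so the ranges overlapped. The highest values, 9.43, 7.79 and 5.04, were those of pairs with mutant replicate 1, the library with the most counts. This statistic also grows with the number of counts. For Myl2 the coefficient of variation was 3.08% in mutants and 1.23% in wild type, with counting errors of 0.517% in mutants and 0.516% in wild type. For Myl4 the coefficients were 6.99% in mutants and 2.13% in wild type, and for Myl3 6.48% in mutants and 2.79% in wild type. Myh7 went the other way, at 5.14% in mutants and 7.59% in wild type. Myl7 varied most among the abundant members, at 13.8% in mutants and 10.1% in wild type, with counting errors of 1.76% in mutants and 2.11% in wild type. Counting errors leave out all other sources of spread. These differences in spread were not tested.

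**Figure D4:**
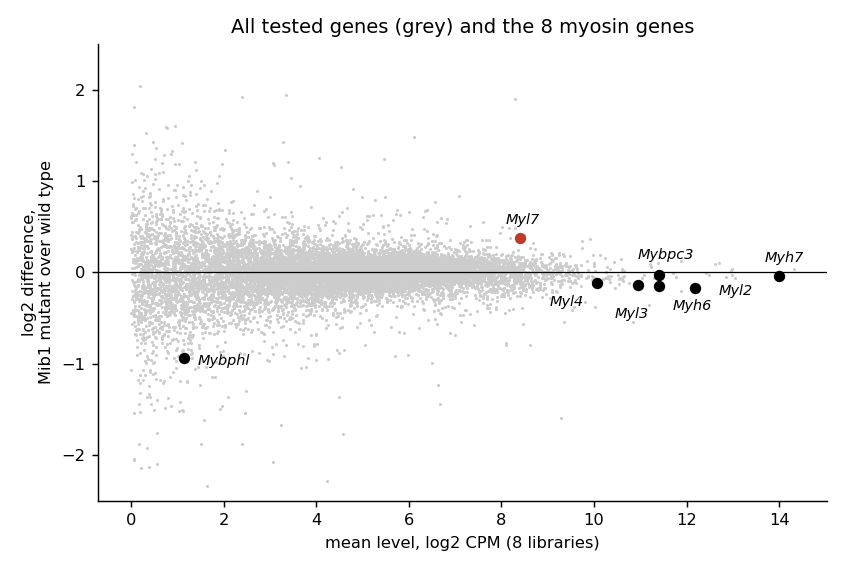
Log2 difference (Mib1 mutant over wild type) against mean level in log2 CPM for all tested genes (grey; 8 genes beyond ±2.5 are outside the axis) and for the 8 myosin genes (Myl7, called, in red; the others in black). The 7 abundant members sit at the upper end of the level range, and Mybphl at the low end where differences of all genes scatter most.

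Atrial genes outside the members were called lower or not at all. In a list of 13 atrial cardiomyocyte markers without the members, 5 fell, 0 rose and 8 were not called, with a median log2 difference of −0.44 against 0.00092 over all genes tested. Kcnj3, the gene of an atrial potassium channel subunit, fell to 12.7 ± 1.19 CPM in mutants, against 20.2 ± 2.11 CPM in wild type, and Pam, a peptide-amidating enzyme gene, fell by 0.45 on the log2 scale. Nppa, Gja5 and Bmp10, which also mark trabeculae, fell by 1.60, 1.45 and 2.29 on the log2 scale. Sln, the sarcolipin gene and a defining atrial marker, was low, at 3.32 ± 1.04 CPM in mutants and 4.11 ± 2.13 CPM in wild type. The summed level of the list ran from 1885 to 2035 CPM in mutants and from 3275 to 3320.2 CPM in wild type. The highest genes in this sum were Pam (1265 CPM in mutants and 1730 CPM in wild type) and Nppa (362 CPM in mutants and 1089 CPM in wild type). No marker was at 0 in all libraries. The part of the atrial markers in the difference of Myl7, Myl4 and Mybphl was not tested.

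**Figure D5:**
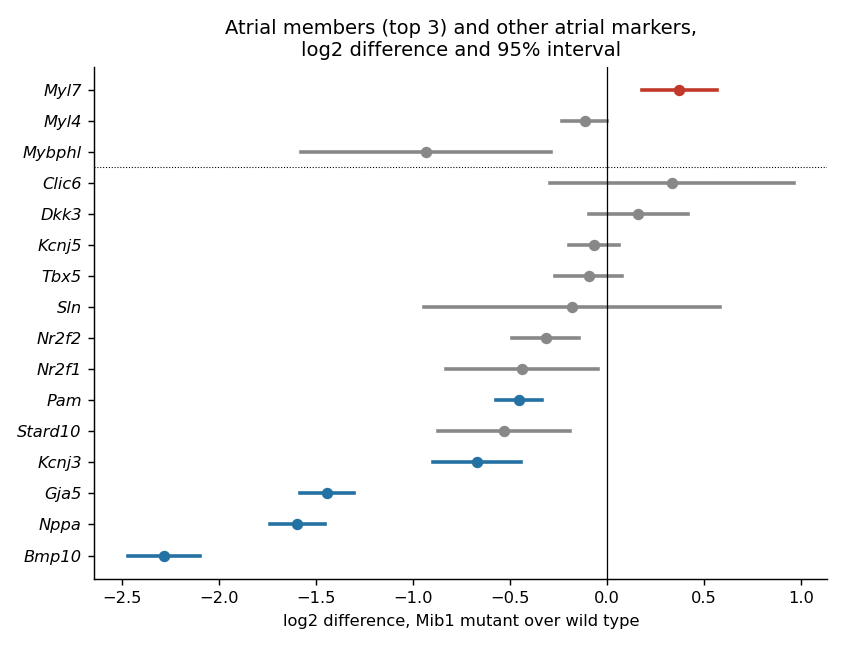
Log2 difference (Mib1 mutant over wild type) with its 95% interval from limma for the 3 atrial myosin genes (above the dotted line) and 13 other atrial markers; red marks genes called higher, blue genes called lower and grey genes not called. Myl7 at 0.37 is the only one called higher, while Myl4 and Mybphl lie below 0, as do 11 of the 13 markers.

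Among 9 ventricular cardiomyocyte markers without the members, 2 rose and 7 were not called, with a median of 0.05. Hey2, a repressor that restrains atrial genes in the mouse ventricle, rose to 196 ± 9.78 CPM in mutants, against 165 ± 7.21 CPM in wild type. Its call was lost without mutant replicate 2 or without wild-type replicate 1, 2 or 3, at differences of 0.22 to 0.26, and also without a variance trend (adjusted p = 0.117 by limma) and with the replicate block (adjusted p = 0.0619 by limma). Lbh, a transcriptional cofactor gene, rose by 0.19, and its call held in 2 of 8 fits when each library was dropped, those without mutant replicate 1 or 3. It was also lost in 6 of 14 other settings. Of 13 cardiomyocyte genes shared by all chambers 0 were called by limma, and their median was −0.03. Before adjustment 1 of them had p under 0.05, and with voom weights 1 was called. Tnnt2, the troponin T gene, had the smallest p of these, at −0.21 ± 0.05 (SE; limma adjusted p = 0.0658). It was lower in every mutant library and passed in 3 of 22 other settings. These were robust variance estimates (limma adjusted p = 0.0138), voom weights (0.0163) and a filter at a mean of 5 CPM (0.0428). The summed level of this shared list was 24518 to 26953 CPM in mutants and 25400.4 to 27340.5 CPM in wild type, so the ranges overlapped.

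Genes that act on cardiac myosin transcription were mostly not called. Of 23 regulators tested, 2 rose, 0 fell and 21 were not called (median −0.04), where 0.99% of all tested genes rose and 1.25% fell. Before adjustment 9 of the 23 had p under 0.05, against 14.8% of all tested genes. Of these 9, Nr2f1 and Nr2f2 were lower and the others were higher in the mutants. Tbx20, a T-box factor, rose to 414 ± 27.9 CPM in mutants, against 311 ± 6.94 CPM in wild type (log2 difference 0.41 ± 0.05, SE; limma adjusted p = 0.000574), and Hey2 rose by 0.25. Of 15 genes of the light chain kinases and myosin phosphatase 0 were called by limma and 0 with voom weights, and 2 had an unadjusted p under 0.05 (median 0.01). Mylk3, the cardiac myosin light chain kinase that phosphorylates Myl2, had the smallest p, at 335 ± 14.6 CPM in mutants and 299 ± 25.1 CPM in wild type (log2 difference 0.17 ± 0.06, SE; limma adjusted p = 0.205). Of 14 genes of myosin folding, thick filament assembly and turnover 0 were called by limma and 1 with voom weights, and 5 had an unadjusted p under 0.05 (median −0.04). Trim54, which encodes a muscle RING finger protein, came nearest at −0.99 ± 0.24 (SE; limma adjusted p = 0.0524). It was low, at 1.96 CPM in mutants (9 to 28 counts) and 3.81 CPM in wild type (22 to 38 counts). The abundant gene Smyd1 was close behind, at 332 CPM in mutants and 380 CPM in wild type (limma adjusted p = 0.0550), lower in every mutant library. The others with an unadjusted p under 0.05 were higher in the mutants. Myom2 stood at 71.4 CPM in mutants and 42.7 CPM in wild type (limma adjusted p = 0.0639). Trim63 stood at 173 CPM in mutants and 147 CPM in wild type (limma adjusted p = 0.0856), higher in every mutant library. Trim55 stood at 293 CPM in mutants and 259 CPM in wild type (limma adjusted p = 0.163). Trim54 passed in 7 of its 21 other settings, at differences from −1.13 (without mutant replicate 2) and −1.11 (without mutant replicate 1) to −0.34 (with 5 CPM added).

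Of 14 sarcomeric myosin and binding protein genes outside the members, 6 were tested, of which 1 fell, 0 rose and 5 were not called (median −0.30). Mybpc1, the slow skeletal myosin binding protein C gene, fell to 1.84 ± 0.564 CPM in mutants, against 4.26 ± 0.539 CPM in wild type (log2 difference −1.23 ± 0.25, SE; limma adjusted p = 0.0192), and was no longer called in the fits without wild-type replicate 1, 2 or 4 (−1.18, −1.26 and −1.19). With 5 CPM added its difference was −0.44. Of 8 nonmuscle and smooth muscle myosin II genes 0 were called by limma and 0 with voom weights, and 1 had an unadjusted p under 0.05 (median −0.05). Myl9, a regulatory light chain of smooth muscle and nonmuscle myosin, had the smallest p, at 692 ± 33.6 CPM in mutants and 613 ± 21.6 CPM in wild type (limma adjusted p = 0.0925).

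Markers of other cells in the wall also differed between the genotypes. All 10 endothelial markers were below 0, with 4 called lower (Tek, Egfl7, Ramp2 and Plvap), and their summed level was 1226 to 1278 CPM in mutants and 1415 to 1472 CPM in wild type. All 11 macrophage markers were below 0, with 3 called lower (Lyz2, Tyrobp and C1qc). Their sums were 74.2 to 92.2 CPM in mutants and 109 to 133 CPM in wild type. Of 10 erythroid markers 9 were below 0 and 2 were called lower (Hba-a1 and Ank1). Their sums were 1981 to 3251 CPM in mutants and 3021 to 4119 CPM in wild type. Before adjustment 8 endothelial, 8 macrophage and 6 erythroid markers had p under 0.05, against 14.8% of all tested genes. Over all genes tested, 1.25% were called lower and 0.99% higher. Of 8 smooth muscle markers 2 rose: Acta2, which fetal cardiomyocytes also express, by 0.36 and Cnn1 by 0.30. In this list 3 markers were below 0 and 4 had an unadjusted p under 0.05. Kcnj8 was lower in every mutant library (log2 difference −0.33) but not called. The sums were 1629.9 to 1768 CPM in mutants and 1287 to 1475 CPM in wild type. Acta2 alone averaged 1088 CPM in mutants and 846 CPM in wild type. Of 11 fibroblast and epicardial markers 0 were called by limma or voom and 1 had an unadjusted p under 0.05. Of 6 skeletal muscle markers tested, 0 were called by either and 2 had such a p. No marker of these lists was at 0 counts in all libraries. The part of these cells in the differences of the myosin genes was not tested. The calls of Tek, Egfl7, Hba-a1, C1qc and Cnn1 were each lost in 5 to 7 of 8 fits when single libraries were dropped. Acta2 lost its call in 1 setting, without a variance trend (adjusted p = 0.0688 by limma).

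The genes whose profiles over the 8 libraries lay nearest to Myl7, Myl2 and Mybphl were looked up among 11109 genes with a mean of at least 5 CPM. Distance was the root mean square of log2 differences, each profile taken relative to its wild-type mean. Near Myl7 lay Flvcr2, a transporter gene, at a distance of 0.0853. It stood at 11.6, 14.0, 14.7 and 12.8 CPM in mutants and at 11.1, 9.88, 10.9 and 9.41 CPM in wild type, so the groups did not overlap. Near Myl2 lay Tpt1-ps3, a pseudogene that may share reads with Tpt1, at 0.0259 and Cdh11, a cadherin gene, at 0.0264. Near Mybphl lay Igfbp2, an insulin-like growth factor binding protein gene, at 0.290. Igfbp2 fell to 11.8 ± 2.29 CPM in mutants, against 20.4 ± 1.71 CPM in wild type (limma adjusted p = 0.00375). Flvcr2, Tpt1-ps3 and Cdh11 were not called. Nearness to a profile chosen this way is a description and carries no test.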

How the data were processed

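Polyadenylated RNA was sequenced from one end in 8 libraries, 4 per genotype. Per the submitters' processing notes, cutadapt 1.2.1, RSEM 1.16, Bowtie2 0.12.7 (version as named), limma and edgeR were used, with build mm9. The deposited values are a score: tested on the values, each is a log2 CPM with a prior of 0.5 counts times a constant per library (15.9683 to 16.0735). Dividing by it gave log2 CPM, and 100% of recovered counts were whole within 0.001. Symbols came from GENCODE M21 on GRCm38 and matched 13428 of 13869 genes.

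Genes averaging 0 or more in log2 CPM were compared by limma 3.58.1 in R 4.3.3 (lmFit, eBayes with a trend, group only), with Benjamini-Hochberg adjustment over all 13740; the procedure was tested on simulated data. Isoform ratios used CPM per kb of GENCODE transcript and exact two-sided permutation tests. The floor was set at 3 counts, and counting errors cover counting only. No pair of libraries within a group agreed within sampling noise by chi-square tests of counts; pairs between groups were not tested.

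The members and lists were chosen with earlier results of these data known. Named were all members, Mib1, the called genes of each list (or the gene of smallest p), and, of the 2 nearest profiles each to Myl7, Myl2 and Mybphl, those given in the report; the rest are not reported here. Sln, Kcnj8, Smyd1, Myom2, Trim63, Trim55, Nr2f1, Nr2f2 and the overlapping genes Ccdc63 and Pth1r were named after their values were seen. Alternatives changed the prior, filter, scaling, variance model, weights, block and libraries.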

Additional observations from a re-analysis of the deposited data

Results flagged for a closer look

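Of 78 groups of 4 libraries tested, 2 held a library whose gap to the nearest other exceeded Dixon's 95% critical share of the group's range, and chance gives about 1 in 20. Mybpc3 stood at 2869 CPM in wild-type replicate 1, against 2685 to 2713 CPM in the other wild-type libraries. The Mybphl over Mybpc3 ratio per kb was 0.00559 in wild-type replicate 3 and 0.00290 to 0.00328 in the other wild-type libraries.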

How the results depend on the processing

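Without a trend in the variance, 179 genes were called (70 higher and 109 lower), against 308 (136 higher and 172 lower). Leaving out 1 library gave 146 to 477 genes, with 64 to 208 higher and 81 to 269 lower; the cause was not tested. Signs turned in 4 cases, none of them called: Myh7 was 0.0081 without wild-type replicate 1 (range −0.074 to 0.0081 with libraries left out), and under quantile scaling Myl3 was 0.060 and the Myl4 over Myl3 log2 ratio difference −0.17, which was −0.0021 without mutant replicate 3. With 1 library left out, the log2 difference of Myl7 over Myl2 ran from 0.44 to 0.60 and that of Mybphl over Mybpc3 from −1.08 to −0.69; in other settings Mybphl over Mybpc3 reached −0.26, with 5 CPM added. The labels do not say whether replicate numbers pair the samples. Over all tested genes, deviations of same-numbered libraries had correlations of −0.04 to 0.1. The best match was the same number for 0 mutant libraries and 1 of the wild-type ones. Whether same-numbered pools shared litters or batches cannot be told from these values. With the replicate block 240 genes were called (104 higher and 136 lower) and Myl7 had an adjusted p of 0.00994 by limma. Depth limits Mybphl, with 10 to 29 counts per library.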

Other observations

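Further pairs of members were looked at after their values were seen, and are given without a test. Unlike the ratios above, these are ratios of CPM not divided by transcript length. The log2 ratio of Myl7 over Myl4, the atrial light chain genes, was −1.54 to −1.29 in the mutants and −2.08 to −1.82 in wild type. The log2 ratio of Myl2 over Myl3, the ventricular ones, was 1.14 to 1.39 in the mutants and 1.18 to 1.31 in wild type, so the groups overlapped.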
